A study of Mus musculus with 27 samples.

Results

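The 9 genes described here encode tumour necrosis factor (TNF) itself and the best known costimulatory ligands and receptors of its family: the ligands Tnf, Tnfsf9 (4-1BBL), Cd70 and Cd40lg, and the receptors Tnfrsf9 (4-1BB, CD137), Tnfrsf4 (OX40), Tnfrsf18 (GITR), Cd27 and Cd40. They were chosen by name rather than by a rule on their values, though with earlier results of these data known. They make up 9 of 33696 genes in each single cell matrix and 9 of 48440 genes in each bulk count file. All the material came from MC38 tumours, which grow from a mouse colon adenocarcinoma cell line. The WT group were mice with a loxP-flanked Ogt gene, which encodes O-GlcNAc transferase, and no Cre. The KO group carried the same floxed Ogt and the Lyz2-cre driver, which is active in macrophages, monocytes and neutrophils and is inserted in the lysozyme gene Lyz2, so every mouse of both groups carried the floxed allele and only the KO group also had an altered Lyz2. Bulk RNA was sequenced from tumour-associated macrophages (3 WT and 3 KO libraries), and single cell RNA from CD45+ immune cells (1 matrix per genotype). The labels give no age, sex or animal for any sample, nor whether animals were pooled, so a p-value here reflects the spread among the libraries alone, and that spread may be technical.

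TNF family ligands are mostly membrane proteins that act as trimers and gather their receptors into clusters. The costimulatory receptors have no enzyme activity of their own: they recruit TRAF adaptor proteins, which start NF-kB signalling and raise survival and cytokine production. On T and NK cells, 4-1BB, OX40 and GITR appear after antigen receptor or cytokine stimulation and are carried at high levels by regulatory T cells in tumours, while CD27 is present on resting cells as well. CD40 works in the other direction, on macrophages, dendritic cells and B cells that meet CD40 ligand on helper T cells.

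The upstream sequences of Tnfrsf9 and Tnf are shown because the results on myeloid cells turn mainly on these 2 members, Tnfrsf9 in macrophages and Tnf in neutrophils. They are the 250 bases before the annotated starts, from RefSeq (GRCm38.p6, the mm10 assembly), 5′ to 3′ on the gene's strand. Capitals mark matches on either strand to GGAAAA, the core of NFAT sites, and to TGAGTCA, the AP-1 site.
Tnfrsf9, first start, chr4:150919905-150920154, plus strand: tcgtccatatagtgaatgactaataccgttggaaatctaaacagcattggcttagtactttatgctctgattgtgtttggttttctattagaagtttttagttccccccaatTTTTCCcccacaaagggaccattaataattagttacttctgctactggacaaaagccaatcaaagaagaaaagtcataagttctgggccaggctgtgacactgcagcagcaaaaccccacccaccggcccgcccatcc
Tnfrsf9, second start, chr4:150927749-150927998, plus strand: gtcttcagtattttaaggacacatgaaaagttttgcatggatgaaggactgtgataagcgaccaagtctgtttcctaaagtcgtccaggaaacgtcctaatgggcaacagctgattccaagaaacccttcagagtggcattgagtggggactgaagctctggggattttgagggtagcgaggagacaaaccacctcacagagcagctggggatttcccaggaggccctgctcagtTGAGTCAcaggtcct
Tnf, chr17:35202008-35202257, minus strand: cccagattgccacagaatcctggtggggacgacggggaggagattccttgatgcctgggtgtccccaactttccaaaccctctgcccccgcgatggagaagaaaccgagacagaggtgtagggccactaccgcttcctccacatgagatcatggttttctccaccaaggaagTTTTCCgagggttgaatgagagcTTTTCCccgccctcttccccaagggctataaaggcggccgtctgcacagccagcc
GGAAAA was found in 20.4% of the 32817 upstream windows of the same length and TGAGTCA in 4.46% of them. No window of the members with a RefSeq entry (Tnf, Tnfrsf9, Tnfrsf4, Tnfrsf18 and Cd27) held the EGR site GCGTGGGCG on either strand, and 0.536% of all windows did; these letters alone were searched. No EGR2 or open chromatin peak overlapped these windows, and the nearest open chromatin peak centre lay 1928 bp from the first Tnfrsf9 start, 5916 bp from the second and 1021 bp from the Tnf start.

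The bulk libraries held 7032540 to 32406170 counts, with KO library 1 the deepest. As a check of the genotype, Lyz2 was 46.2-fold lower in the KO libraries and Ogt was lower by a factor of 1.64 (log2 fold change -0.72, edgeR adjusted p = 2.978e-09, without overlap). Of 12939 genes tested with edgeR's quasi-likelihood test, 37.7% were called at a Benjamini-Hochberg adjusted p under 0.05 (18.8% higher and 18.9% lower in KO), and in 46.5% the groups of 3 did not overlap. The macrophage markers C1qa, C1qb and Apoe and the others on that list of 10 summed to 10440 to 10690 CPM (counts per 1000000 counts of the library, after TMM scaling) in the WT libraries and to 9040 to 9227 in the KO libraries, without overlap, with 6 of the 10 called lower and 3 higher. T cell markers were also present: all 8 were detected and 7 of them were called higher in KO, with summed levels of 94.6 to 102 CPM in WT and 183 to 189 in KO. Markers of migratory dendritic cells went the other way, with 6 of 7 tested called lower and summed levels of 702 to 721 in WT and 331 to 337 in KO. Markers of cDC1 (6 of 8 higher, 1537 to 1562 in WT and 2081 to 2109 in KO), of monocytes (6 of 8 higher, 640.1 to 652.5 and 982 to 1015) and of B cells (2 of 5 tested higher and 1 lower, 53.6 to 56.6 and 107 to 113) summed higher in KO. In bulk RNA, a change in the number of cells of a type and a change in RNA per cell cannot be told apart.

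Among the ligands in bulk RNA, Tnf was higher and Tnfsf9 lower in the KO macrophage libraries. Tnf, the cytokine that gives the family its name, stood at 177, 162 and 169 CPM in the WT libraries and at 216, 208 and 213 in the KO libraries. Every KO library was above every WT library, and the log2 fold change was 0.32 (SE 0.044, edgeR adjusted p = 5.886e-09). Tnfsf9, the ligand of 4-1BB, stood at 57.0, 51.6 and 54.6 CPM in WT and at 41.0, 42.3 and 42.7 in KO. These groups did not overlap either, with the KO libraries the lower ones (log2 fold change -0.38, SE 0.0877, edgeR adjusted p = 0.0003101). Cd70, the ligand of CD27, was near the limit of detection, with 18 counts in each WT library and 20, 16 and 6 counts in the KO libraries, or 1.49, 2.35 and 2.63 against 0.600, 1.36 and 0.479 CPM. It was called lower (log2 fold change -1.43, SE 0.557, edgeR adjusted p = 0.0355), but both reads of a pair were counted, so these counts stand for fewer fragments, and the call was lost when WT library 2 or 3 or KO library 1 or 3 was left out (adjusted p of 0.0974 to 0.175). Cd40lg, the ligand of CD40, had 2 counts in WT library 3, 5 in KO library 1 and 0 in the others, and was removed by the filter on low counts.

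Among the receptors in bulk RNA, Tnfrsf9 and Cd27 were higher in KO and the others did not pass the test. Tnfrsf9 stood at 24.5, 23.5 and 21.4 CPM in WT and at 38.3, 37.4 and 39.6 in KO. The groups were well apart, with a log2 fold change of 0.72 (SE 0.109, edgeR adjusted p = 9.384e-08). Cd27 stood at 5.38, 4.95 and 6.15 CPM in WT and at 12.6, 9.93 and 15.2 in KO, again without overlap (log2 fold change 1.20, SE 0.202, edgeR adjusted p = 1.269e-06). Cd40, which activates macrophages and dendritic cells when bound by CD40 ligand, stood at 161, 169 and 162 CPM in WT and at 161, 172 and 158 in KO, values that overlapped fully (edgeR adjusted p = 0.9866). Tnfrsf4 ranged from 14.1 to 15.5 in WT and from 14.9 to 16.9 in KO (adjusted p = 0.679), and Tnfrsf18 from 7.90 to 9.52 in WT and from 8.94 to 11.5 in KO (adjusted p = 0.265), so both overlapped. The T cell marker sum given above moved the same way as Tnfrsf9 and Cd27; its part in their bulk values was not tested.

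**Figure D1:**
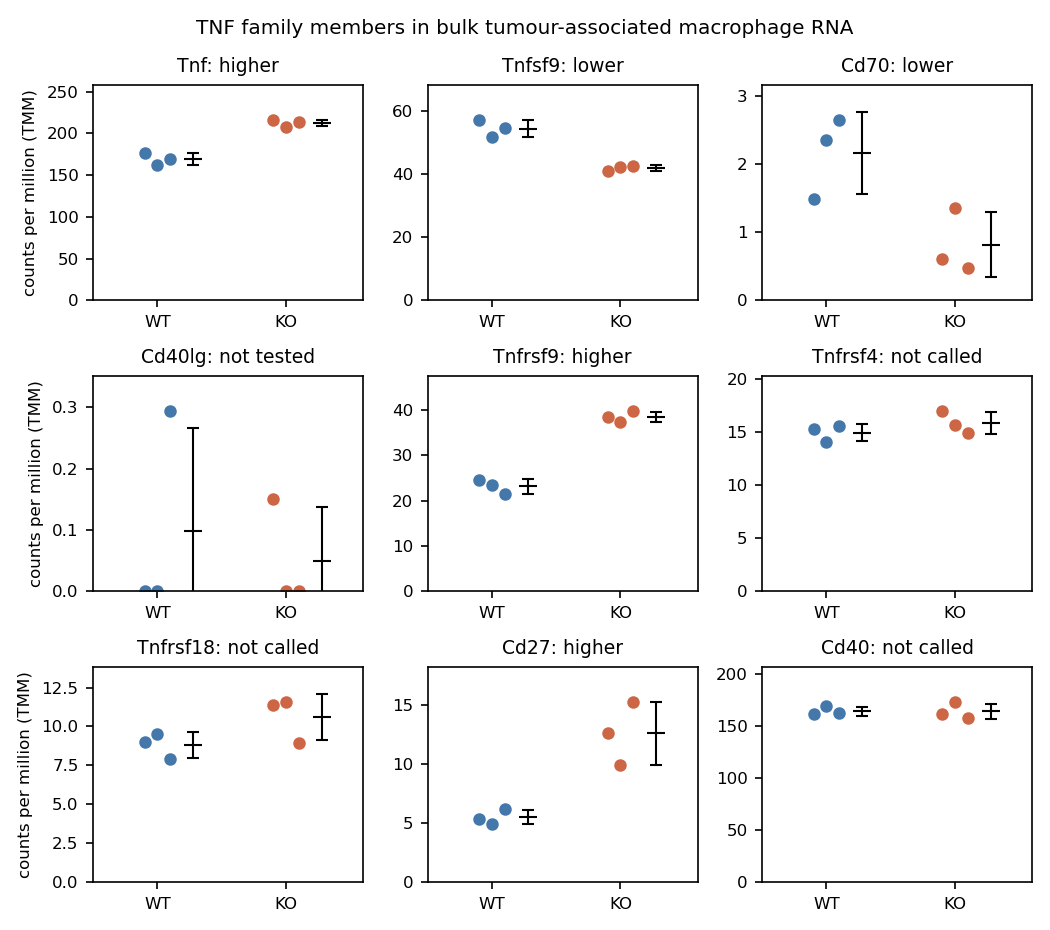
Each panel shows 1 member in bulk macrophage RNA, with TMM-normalised CPM on the vertical axis, the 3 WT and 3 KO libraries as points, and the mean with its SD (n = 3) beside them, drawn from 0 upward. Tnf, Tnfrsf9 and Cd27 lie higher and Tnfsf9 and Cd70 lower in KO without overlap, and Cd40 lies between 158 and 172 in all 6 libraries.

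In all, 8 of the 9 members passed the filter on low counts, and of these 3 were called higher and 2 lower, against the 37.7% of genes called in this comparison. Their median log2 fold change was 0.181, and that of all genes tested was -0.00128. Per kilobase of exon, Tnf was the most abundant member in both genotypes, with 103 ± 4.33 RPKM (CPM per kilobase; SD, n = 3) in WT and 129.5 ± 2.26 in KO. Cd40 followed at 48.1 ± 1.19 in WT and 48.1 ± 2.22 in KO, and Tnfsf9 at 44.2 ± 2.18 and 34.1 ± 0.707. In WT the lowest Cd40 library (47.3) was just above the highest Tnfsf9 library (46.3). Tnfrsf4 (10.95 and 11.6 RPKM), Tnfrsf9 (8.49 and 14.1), Tnfrsf18 (5.79 and 6.97), Cd27 (2.36 and 5.39) and Cd70 (2.56 and 0.965) were well below them, and Tnfrsf9 passed Tnfrsf4 in KO. The levels of Cd27 and Cd70 overlapped in WT (2.13 to 2.64 and 1.77 to 3.13 RPKM) but not in KO. The exons of Tnfrsf18 share 414 of 1524 bases with Gm16008 on the other strand and those of Cd27 share 129 of 2328 bases with Mir8113. Strand was not used in counting and reads of such pairs cannot be told apart, although Gm16008 and Mir8113 themselves had 24 and 0 counts over the 6 libraries.

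The wider pathway in bulk RNA is given by lists of other family genes, to be read against the 18.8% of all genes called higher and 18.9% called lower. Of 13 other TNF superfamily ligands tested, 4 were called higher and 1 lower, with a median log2 fold change of -0.10 (-0.00128 over all genes), a share called close to that of all genes (37.7%). Tnfsf8, the CD30 ligand, was the one that fell, from 13.3 to 16.4 CPM in WT to 5.88 to 6.55 in KO (log2 fold change -1.21, edgeR adjusted p = 2.706e-07). Tnfsf14 (LIGHT, log2 fold change 0.54), Tnfsf10 (TRAIL, 0.88) and Ltb (lymphotoxin beta, 0.40) were among those that rose. Of 14 other receptors tested, 1 was called higher and 2 lower: Ltbr, the lymphotoxin beta receptor, rose by 0.16, while Tnfrsf23 and Relt had log2 fold changes of -0.51 and -0.23. Without WT library 2 the receptors' counts fell to 0 in both directions, without KO library 1 to 0 higher and 1 lower, without KO library 2 to 0 higher and without KO library 3 to 1 lower. The count of ligands that rose fell to 2 without WT library 3, KO library 1 or KO library 2.

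The genes that carry or limit TNF receptor signals are read against the same shares of all genes, 18.8% higher and 18.9% lower. Of 15 adaptors, 3 were called higher and 6 lower (median log2 fold change -0.14). Cflar, an inhibitor of caspase 8, had a log2 fold change of -0.37, Traf1 of -0.21, Birc2 of -0.29 and Birc3 of -0.19, the last 3 being parts of the complex that TRAF2 forms at these receptors. Of 14 tested genes of TNF mRNA control, processing and feedback, 8 were called lower and 1 higher, with a median log2 fold change of -0.21. The one that rose was Adam17, the protease that releases soluble TNF from the cell surface, at 169, 178 and 188 CPM in WT and 261, 252 and 267 in KO (log2 fold change 0.55, SE 0.0423, edgeR adjusted p = 3.443e-18). Zfp36l1 and Zfp36l2, which bind AU-rich mRNAs such as that of TNF and speed their decay, had log2 fold changes of -0.64 and -0.36, and Tnfaip2, a TNF-induced gene, of -0.62. Among 10 genes of B7 and CD28 costimulation 4 were called higher and 3 lower. Those that fell included Cd86 (-0.28) and Cd80 (-0.41), the B7 ligands of antigen-presenting cells, and those that rose included the T cell receptors Cd28 (1.20) and Icos (0.59). Without WT library 2 only 2 of these genes were called higher.

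The single cell matrices held 9712 WT and 9767 KO cells after filtering, and the median cell had 5579 and 5807 UMIs (unique molecular identifiers, each standing for 1 captured RNA molecule). Levels below are UMI counts per 1000000 UMIs (CPM), summed over the cells of a class. 23 barcodes occurred in both. The cells fell into 21 clusters, which were named from fixed marker lists: each class is one whose cells are like that type, and the word like is left out below. The classes used are regulatory T (989 WT and 1105 KO cells), CD4 T (749 and 904), CD8 T (795 and 1174), gamma-delta T (159 and 176), NK (1384 and 1052), monocyte or macrophage (3765 and 3534), cDC1 (256 and 216, a dendritic cell class in which the cDC2 marker Cd209a is also among the leading genes) and neutrophil (604 and 762). The cDC1 class scored 2.647 for cDC1 and 2.386 for cDC2. Finer clusters gave a smaller cDC1 cluster (97 WT and 71 KO cells) and a separate cDC2 cluster (328 and 291). Values given for the cDC1 class are therefore not those of cDC1 alone. The finer cDC2 cluster held more cells than the whole cDC1 class, so it also took in cells from outside it. Its leading genes include Cd209a and Ccl17 but also Mgl2, Mmp12 and Dcstamp. Which classes those cells came from was not tested. Plasmacytoid dendritic cells (39 and 21) and B cells (33 and 40) were too few for more than a level. Monocyte and macrophage clusters were joined because the Arg1-led cluster 2 scored almost alike for both. Cluster 1, led by MHC class II genes, was the largest part of this class in WT (1711 cells) and slightly more than cluster 2 in KO (1114 against 997). Cluster 12 (808 and 702 T cells led by genes such as Tcf7) was left unnamed, because it scored alike for CD8 and resting T cells. A genotype has only 1 matrix, and whether it also holds the second sample titled for that genotype is not given in the sources used here, so nothing can be tested: intervals below are 95% counting intervals only, and differences compare these 2 matrices, not the genotypes. One label field of the KO matrix reads CD47 where that of WT reads CD45, while the titles of both say CD45. Ogt in monocytes and macrophages went from 52.3 to 41.7 CPM and Lyz2 from 4030 to 14.3.

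Droplets also hold free RNA from broken cells. Its level was read from barcodes with 1 to 100 UMIs, where Tnfrsf9 made up 213 CPM in WT and 509 in KO, Tnf 97.4 and 153, Tnfrsf4 111 and 164, Tnfrsf18 118 and 152, Tnfsf9 45.0 and 26.9, Cd27 41.3 and 45.5, Cd40 34.0 and 48.2, Cd70 8.50 and 7.02, and Cd40lg 4.54 and 6.83. Cells take up only a small part of it. In monocytes and macrophages, T cell receptor and CD3 transcripts stood at 5.49% of their free RNA level in WT and 6.27% in KO, and in the T and NK classes the macrophage C1q transcripts stood at 1.66% to 4.42% of theirs. A member at such a share of its free RNA level is read as background. This is more lenient than the rule first set, that a class must exceed the free RNA level itself. By that rule Tnfrsf9 would pass in regulatory T, CD8 T and NK cells but would be background in CD4 and gamma-delta T cells and in every myeloid class. Of the 8 classes listed first, Tnf would pass in both matrices only in neutrophils, gamma-delta T cells and monocytes and macrophages, and Tnfsf9 only in CD4 T cells, cDC1 and monocytes and macrophages. Both would also pass in the few plasmacytoid dendritic cells (Tnf 117 and 155 CPM, Tnfsf9 95.1 and 131). Free RNA levels depended on the barcodes used: with those of 1 to 20 UMIs, Tnfsf9 in KO was 16.5 and Cd70 in WT 5.16, and 8 of the 18 levels moved beyond their counting interval.

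Tnfrsf9, Tnfrsf4, Tnfrsf18 and Cd27 all had their highest level in regulatory T cells. There, Tnfrsf9 reached 1097 CPM (1070 to 1124) in WT and 1907 (1874 to 1941) in KO, Tnfrsf4 881 and 1101, Tnfrsf18 767 and 920, and Cd27 145 and 166. Below them the order of the classes differed between the receptors. Tnfrsf9 came next in NK cells (335 in WT and 775 in KO) and CD8 T cells (302 and 602), then in gamma-delta T cells (195 and 475) and CD4 T cells (171 and 403), which in WT were within their counting intervals of each other. Tnfrsf4 came next in CD4 T cells (384 and 472), then in CD8 T cells (165 and 190.5), and was almost absent from NK cells (4.42 and 13.6). Tnfrsf18 had the same second place in CD4 T cells (334 and 365) but was also found in NK cells (112 and 156). Cd27 came next in CD8 T cells (83.3 and 112), in cluster 12 (74.6 and 80.8) and in NK cells (38.2 and 39.3).

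The ligands were spread over more classes. Tnf was highest in neutrophils (309 CPM in WT and 753 in KO), then in gamma-delta T cells (193 and 179) and in monocytes and macrophages (119 and 161). Tnfsf9 was highest in cDC1 (79.0 and 61.2) and in monocytes and macrophages (67.3 and 52.2) among classes of at least 50 cells in each matrix, with CD4 T cells at 66.7 and 41.6. In WT the intervals of cDC1 (68.9 to 90.1) and of CD4 T cells (58.3 to 76.1) overlapped. Cd40lg was a gene of CD4 T cells (96.2 and 116) and, in WT, of gamma-delta T cells (59.2 and 22.3), with 7.43 or less in CD8 and regulatory T cells. Cd70 was found in CD4 T cells (44.4 and 48.3), CD8 T cells (30.2 and 9.07) and regulatory T cells (18.9 and 12.6). Cd40 was the only receptor of the set found mainly in myeloid cells and B cells: 70.6 and 104 in monocytes and macrophages and 45.8 and 82.6 in cDC1, with 3.09 or less in the T and NK classes. The 33 WT and 40 KO B cells had 51.9 (24.9 to 95.5) and 149 (101 to 212), too few for a firm place in this order.

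**Figure D2:**
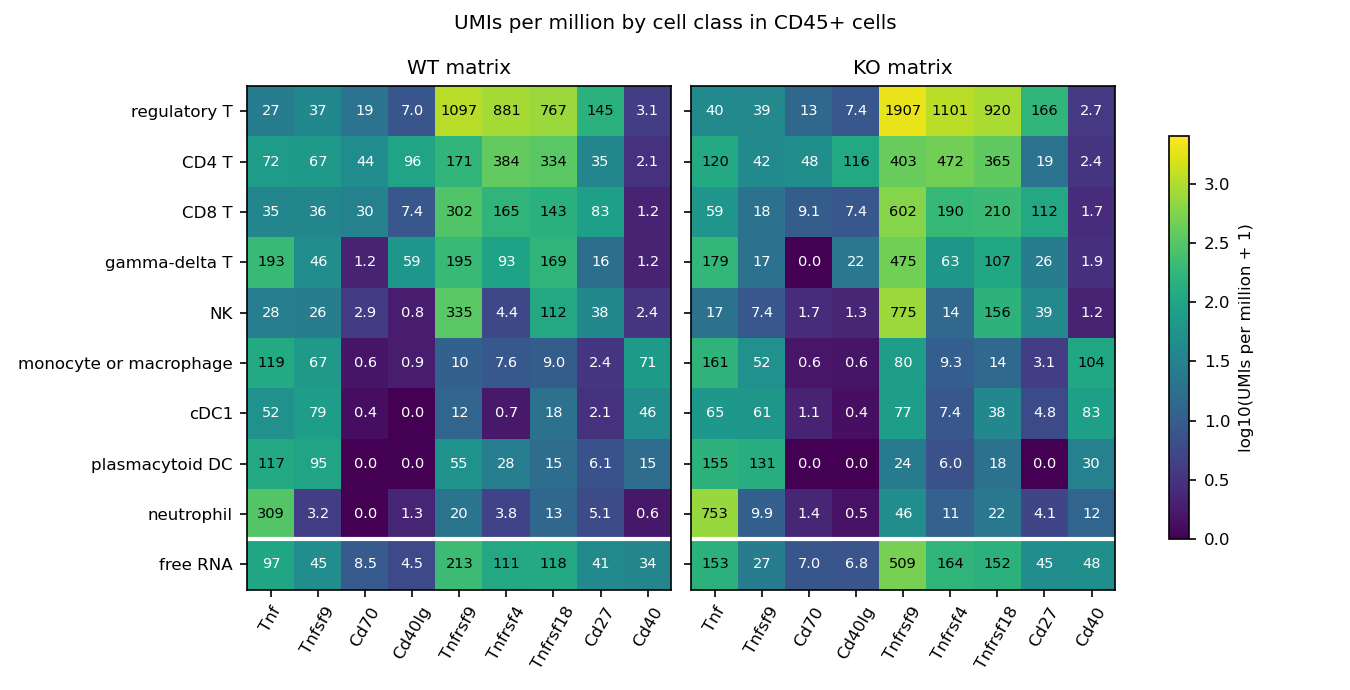
CPM of each member (columns, ligands first) in each class (rows) of the WT and KO matrices, with free RNA as the last row; colour is log10 of CPM plus 1. The high block is Tnfrsf9, Tnfrsf4 and Tnfrsf18 in regulatory T cells, from 767 to 1907, and Tnf is highest in neutrophils.

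Tnfrsf9 was higher in the KO matrix in each of these 8 classes. In T and NK classes the KO level divided by the WT level was 1.74 (1.69 to 1.79) in regulatory T cells, 1.99 (1.91 to 2.08) in CD8 T cells, 2.32 (2.23 to 2.40) in NK cells, 2.36 (2.15 to 2.59) in CD4 T cells and 2.44 (2.04 to 2.93) in gamma-delta T cells. The granzyme-led NK cluster 11 went from 408 to 951 CPM and the other NK cluster, 10, from 234 to 509. Among CD8 T cells, the cycling cluster 16 went from 252.5 to 484 and the non-cycling cluster 14 from 357 to 673. In each of these 5 classes Tnfrsf9 was among the 32 genes with the highest ratio of 4940 to 6307 genes compared, and 0.709% (NK) to 5.93% (gamma-delta T) of genes there were at least 1.5-fold higher in KO.

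The share of cells with a Tnfrsf9 UMI was also higher. In regulatory T cells it went from 91.6% to 98.3%, and with every cell thinned to 2000 UMIs from 80.0% to 93.7%. In thinned CD8 T cells it went from 34.7% to 53.0%, and in thinned NK cells from 38.4% to 57.9%. Thinning left out 623 WT and 617 KO cells with fewer UMIs. In thinned neutrophils, in which Tnfrsf9 stood at background as shown further on, the share was 3.51% and 4.45%. Median depths before thinning were 4587 and 4769 UMIs in regulatory T cells and 2300.5 and 2514 in neutrophils.

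**Figure D3:**
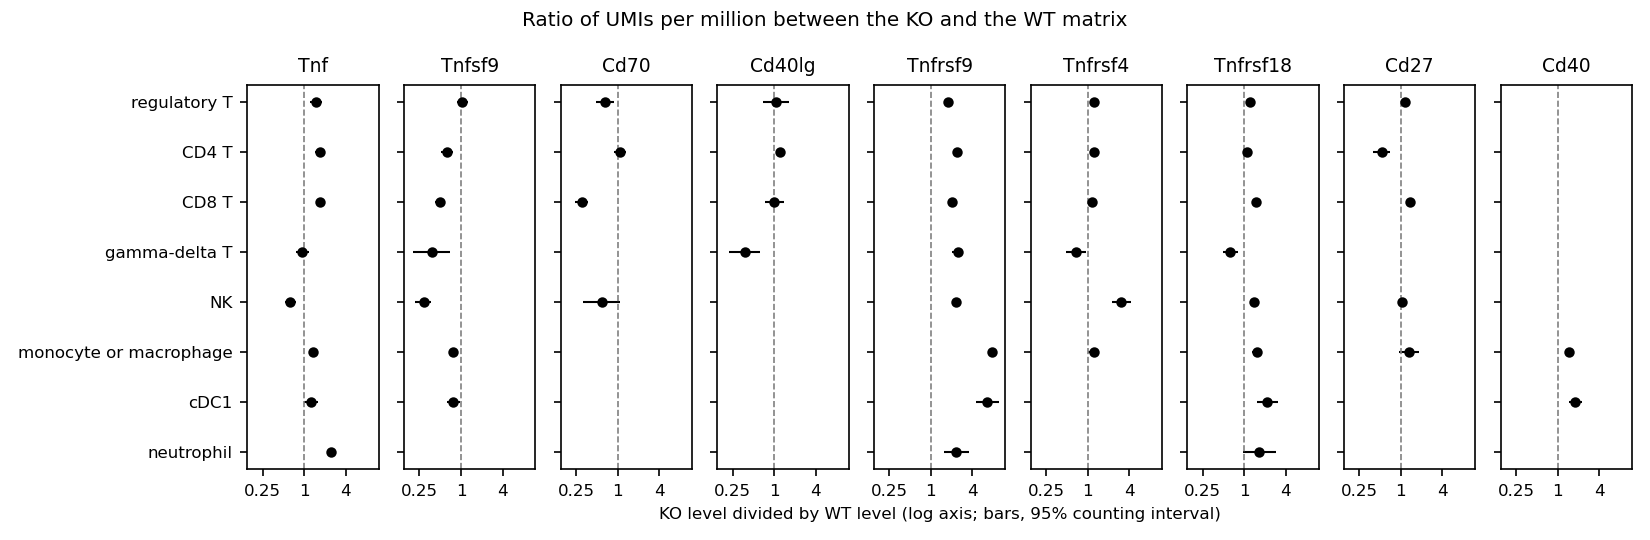
KO level divided by WT level of each member (panels) in each class (rows) on a log axis, with 95% counting intervals, for members with at least 50 UMIs over both matrices in that class; the dashed line is equality. Tnfrsf9 lies above 1 in all 8 classes, furthest in monocytes and macrophages at 7.71, while Tnfsf9 lies below 1 in NK, CD8 T and CD4 T cells.

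In monocytes and macrophages, the Tnfrsf9 level was 10.4 CPM (9.23 to 11.7) in WT and 80.2 (76.9 to 83.5) in KO, a ratio of 7.71 (6.82 to 8.74). Of 5934 genes compared in this class only 1 had a higher ratio, and 2.81% were at least 1.5-fold higher in KO. The largest difference was in cluster 2, led by Arg1, Pf4 and Retnla, with 7.65 in WT and 135 in KO (ratio 17.7, 12.2 to 26.5). The MHC class II cluster 1 had 10.8 and 77.9 (7.19, 5.97 to 8.71) and the C1q-led cluster 4 had 16.0 and 75.4 (4.71, 3.68 to 6.11). Cluster 5, led by Chil3 and Hp, had 7.35 and 24.0, the smallest ratio of the 6 clusters at 3.26 (2.22 to 4.89). Cluster 5 scored almost alike for monocytes and non-classical monocytes; finer clusters held a classical one (413 WT and 484 KO cells, Tnfrsf9 7.48 and 17.2) and an Ace-led non-classical one (454 and 311 cells, 9.13 and 13.8), whose numbers moved in opposite directions. The ratio of the whole class fell to 4.83 with a looser cell filter. With finer clusters the named clusters of the class had 4.44. An Arg1-led finer cluster (406 WT and 594 KO cells) and a Nos2-led one (31 and 221) were left unnamed there and so not counted. Tnfrsf9 was 6.60 and 198.5 CPM in the Arg1-led one (30.1, 19.6 to 48.8) and 8.97 and 42.3 in the Nos2-led one (4.72, 1.26 to 39.7). The bulk macrophage libraries moved the same way, but by a factor of 1.65.

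**Figure D4:**
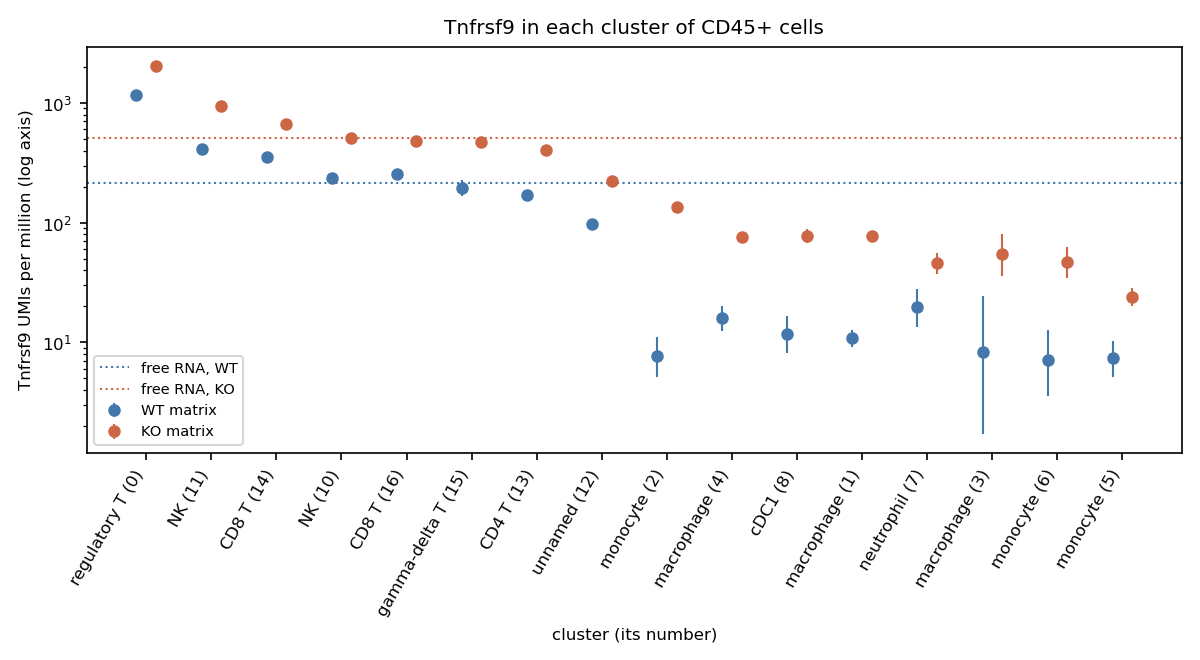
Tnfrsf9 CPM (log axis) in each cluster with at least 50 cells in both matrices, ordered by mean level, with 95% counting intervals; dotted lines are the free RNA levels, 213 in WT and 509 in KO. Every cluster lies higher in KO, and the gap is widest in the Arg1-led cluster 2, at 7.65 and 135.

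Free RNA holds much Tnfrsf9, and its level was higher in KO as well, so the myeloid values were set against it. In WT, Tnfrsf9 in monocytes and macrophages stood at 4.89% of its free RNA level, inside the range of 23 T and NK marker genes in the same cells (2.61% to 11.8%, median 5.25%). In KO it stood at 15.8%, above all 23 of these genes (1.75% to 12.3%, median 5.87%). In cluster 2 the gap was wider: 26.6% for Tnfrsf9 in KO, with marker genes at 1.48% to 13.2%. Tnfrsf4, Tnfrsf18, Cd27 and Cd70 stayed at 5.67% to 9.03% in KO, as did Cd40lg at 8.27%. In cDC1 the KO level of Tnfrsf9 (77.5 CPM, 11.8 in WT; a ratio of 6.57 that ranged from 2.35 to 11.5 over its alternatives) was 15.2% of free RNA and inside the range of the marker genes there (0% to 23.5%), although 6 of 166 KO and 0 of 200 WT cDC1 without T or NK transcripts had at least 5 UMIs of it. T cell receptor and CD3 transcripts in cDC1 stood at only 4.75% of free RNA in KO, and Ikzf2 set the top of that range. Whether dendritic cells make some of these markers themselves was not tested. A place inside the range therefore does not show that Tnfrsf9 there is background. In finer clusters Tnfrsf9 was 11.09 and 27.25 CPM in the smaller cDC1 cluster (ratio 2.46) and 14.3 and 147.9 in the cDC2 one (10.4). The cDC2 one also holds cells from outside the cDC1 class, so its ratio is not that of a part of this class. These finer values were not set against free RNA. In neutrophils Tnfrsf9 in KO stood at 8.96% of free RNA, inside the range there (3.23% to 17.8%), and is read as background.

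**Figure D5:**
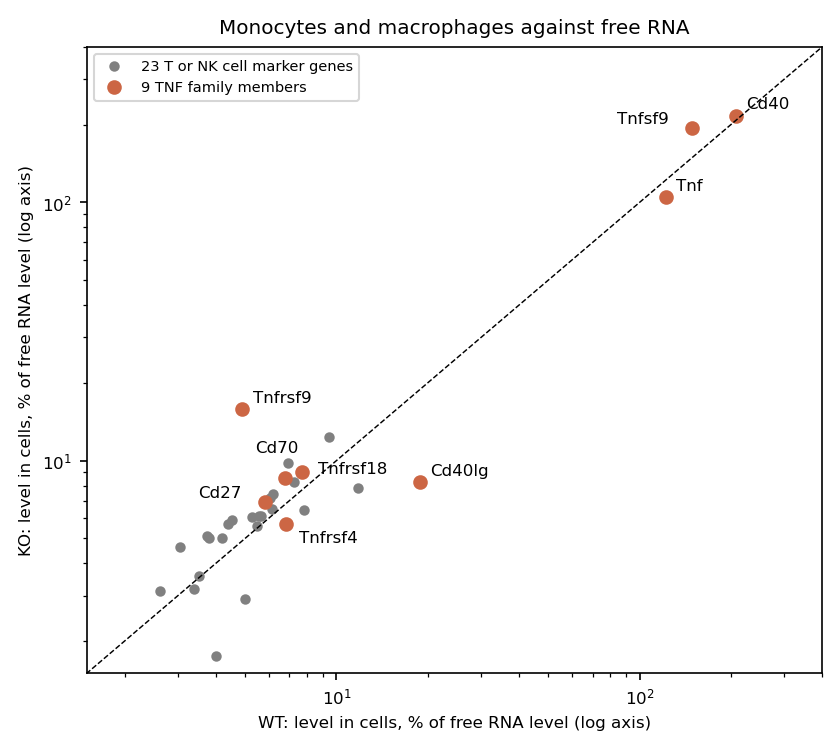
Level in monocytes and macrophages as a percent of the free RNA level, WT on the horizontal and KO on the vertical log axis, for the 9 members and 23 T or NK marker genes; the dashed line is equality. Tnfrsf9 lies at 4.89% and 15.8%, above the marker genes in KO only, and Tnf, Tnfsf9 and Cd40 lie above 100%.

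Cells without a Cd3e, Cd3d, Cd3g, Trac, Trbc2, Ncr1 or Klrb1c transcript, called cells without T or NK transcripts here, gave the same direction in the class as a whole. Other T or NK cell genes were not used to choose them. Among the 3009 WT and 2740 KO monocytes and macrophages of this kind, Tnfrsf9 stood at 6.66 and 59.2 CPM, a ratio of 8.90 (7.46 to 10.7). The ratio among them was 13.9 in cluster 2 but 1.71 in cluster 5. At least 5 Tnfrsf9 UMIs were present in 0 WT cells, which allows a share of up to 0.0997%, and in 66 KO cells (2.41%). At least 3 UMIs were present in 2 WT cells and 104 KO cells, of which 62 belonged to cluster 2 and 25 to cluster 1. Those 104 cells were deeper (median 10317.5 UMIs) than the KO cells with no Tnfrsf9 UMI (median 5815). They carried the macrophage genes C1qa (1534 against 1005 CPM), Trem2 (62.8 against 30.8) and Arg1 (904 against 340), and less of the monocyte genes Ly6c2 (36.5 against 539) and Chil3 (4.24 against 185). Genes picked afterwards as the most raised in them include Dcstamp, which acts in macrophage fusion (101 against 12.2), the elastase gene Mmp12 (2744 against 486.5), Cxcl3 (640 against 121) and Nos2 (151 against 34.7). Cells were chosen by Tnfrsf9 itself, so this is a description.

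Tnf differed most in neutrophils. Its level went from 309 CPM (283 to 338) in WT to 753 (718 to 790) in KO, a ratio of 2.43 (2.20 to 2.70), and the share of cells with a UMI went from 26.8% to 52.4%, or from 23.9% to 46.9% in thinned cells; in thinned NK cells, with little Tnf, it was 5.07% and 3.87%. Neutrophils varied widely between the matrices, with 8.61% of 4367 genes at least 1.5-fold higher in KO. Monocytes and macrophages went from 119 to 161 (ratio 1.35, 1.29 to 1.41), a direction shared with the bulk libraries. Within that class cluster 5 went from 64.1 to 120 (1.87, 1.63 to 2.16), with 55.2 and 102 in its finer classical cluster and 77.8 and 156 in the non-classical one, while the Arg1-led cluster 2 (185 and 189) and the interferon-led cluster 6 (184 and 171) had intervals of the ratio that hold 1. CD4 T cells (71.8 and 120.5) and CD8 T cells (34.9 and 58.9) had ratios of 1.68 and 1.69, regulatory T cells (26.9 and 39.6) 1.47, and gamma-delta T cells 0.927 (0.746 to 1.15). NK cells had less Tnf in KO, at 27.8 and 17.4 (0.625, 0.517 to 0.752).

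Tnfsf9 had ratios under 1 in most classes. It was lower in the KO matrix in NK cells (25.7 and 7.36 CPM; ratio 0.287, 0.219 to 0.371), in CD8 T cells (35.5 and 17.8; 0.5), in CD4 T cells (66.7 and 41.6; 0.624) and in gamma-delta T cells (45.9 and 17.4; 0.380, 0.204 to 0.682). The ratio in regulatory T cells was 1.04 (0.864 to 1.25). Monocytes and macrophages went from 67.3 to 52.2, a ratio of 0.776 (0.724 to 0.831) close to the bulk decrease by a factor of 1.30, and all 6 of their clusters had ratios under 1, with intervals that reach 1 or more in clusters 3 and 4. In NK cells only 5 of 5928 genes had a lower ratio, and 1.99% were at least 1.5-fold lower in KO. In cDC1 the ratio was 0.775 (0.630 to 0.952), but it moved to 0.265 with a looser cell filter and to 0.231 with finer clusters. The smaller cDC1 cluster there had 26.6 and 6.15 CPM, and the cDC2 one 92.6 and 78.6 (0.848, 0.716 to 1.0).

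Cd40 was higher in the KO matrix in monocytes and macrophages, at 70.6 CPM (67.5 to 73.8) in WT and 104 (101 to 108) in KO, with a ratio of 1.48 (1.40 to 1.57). The ratio was above 1 in all 6 clusters of the class, from 1.17 (0.996 to 1.38) in the interferon-led cluster 6, which had the highest level (223.5 and 262.5), to 1.69 in clusters 3 and 4. In finer monocyte and macrophage clusters the Cd40 ratio ran from 0.914 (0.678 to 1.26) in the Nos2-led one (31 WT and 221 KO cells) to 1.97 (1.55 to 2.53) in the Arg1-led one. How far the make-up of the class enters its ratio was not tested. In bulk macrophage RNA Cd40 did not differ beyond the spread between libraries. Migratory dendritic cells, whose marker sum was lower in the bulk KO libraries, and cDC1, monocytes and B cells, whose marker sums were higher, are all known to carry Cd40. Their part in the bulk value was not tested. In cDC1 Cd40 went from 45.8 to 82.6 (1.81, 1.45 to 2.26), and the ratio fell to 1.14 with the looser cell filter. In finer clusters it was 1.0 (0.628 to 1.58) in the smaller cDC1 cluster and 1.71 (1.41 to 2.07) in the cDC2 one.

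The other members differed in single classes. Cd70 in CD8 T cells went from 30.2 to 9.07 CPM (0.300, 0.240 to 0.372), and the share of cells with a UMI from 18.0% to 5.88%, or 2.84% to 1.04% in thinned cells; the share in monocytes and macrophages, which lack it, was 0.345% and 0.368%, or 0.0562% and 0.153% thinned. Median depths were 11866 and 9126 UMIs in CD8 T cells and 6047 and 6360.5 in monocytes and macrophages. In CD4 T cells it was 44.4 and 48.3 (1.09, 0.885 to 1.34). A finer clustering placed much of it in CD4 T cells led by Ccl1, Csf2 and Penk, with 105.5 and 164.5. Cd40lg in CD4 T cells went from 96.2 to 116 (1.20, 1.05 to 1.38). The make-up of that class differed: a finer cluster led by Tnfsf8, Il17a and Cd40lg, left unnamed, held 223 WT and 507 KO cells with Cd40lg at 173 and 144 (0.835, 0.692 to 1.01), and the Ccl1-led one held 230 and 161 cells at 65.8 and 72.1 (1.10, 0.819 to 1.47). In gamma-delta T cells Cd40lg went from 59.2 to 22.3 (0.376, 0.219 to 0.629). Cd27 was higher in CD8 T cells (83.3 and 112; 1.35, 1.24 to 1.47) and lower in CD4 T cells (35.4 and 18.7; 0.529, 0.399 to 0.698). In the unnamed finer cluster given above, which held more KO cells, Cd27 was 20.8 and 9.72 (0.468, 0.249 to 0.894). In the Ccl1-led one it was 40.4 and 29.85 (0.738, 0.483 to 1.12). The part of the make-up in the CD4 T ratio was not tested. Cycling cells made up 316 of 795 CD8 T cells in WT and 287 of 1174 in KO. The Cd27 ratio was 1.40 (1.26 to 1.56) in the non-cycling cluster 14 and 0.968 (0.830 to 1.13) in the cycling cluster 16, and 0.986 (0.774 to 1.26) in a finer Gzmk-positive CD8 cluster.

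Tnfrsf4 (chr4:156013843-156016612, plus strand) and Tnfrsf18 (chr4:156026164-156028895, plus strand), which share a stretch of chromosome 4, had smaller ratios than Tnfrsf9. In regulatory T cells the ratios were 1.25 (1.21 to 1.30) and 1.20 (1.15 to 1.25). Tnfrsf18 reached 1.46 (1.37 to 1.56) in CD8 T cells and 1.40 (1.30 to 1.5) in NK cells, and both were lower in gamma-delta T cells (0.677 and 0.630). Counting members against the background, the 6 members with enough UMIs in regulatory T cells included 1 (Tnfrsf9) at least 1.5-fold higher in KO, where 1.25% of genes were, and none at least 1.5-fold lower, where 2.1% were. Of 7 in CD8 T cells, Tnf and Tnfrsf9 were higher and Tnfsf9 and Cd70 lower by that factor, where 2.52% and 3.42% of genes were. Of 8 in CD4 T cells, Tnf and Tnfrsf9 were higher and Tnfsf9 and Cd27 lower, against 2.63% and 3.52%. Of 6 in gamma-delta T cells, Tnfrsf9 was higher and Tnfsf9, Tnfrsf18 and Cd40lg lower, against 5.93% and 6.01%. Of 5 in NK cells, Tnfrsf9 was higher and Tnf and Tnfsf9 lower, against 0.709% and 1.99%. Of 4 in monocytes and macrophages, Tnfrsf9 was higher and none lower, against 2.81% and 1.11%. Of 5 in cDC1, Tnfrsf9, Tnfrsf18 and Cd40 were higher and none lower, against 3.12% and 2.97%. Nothing is read from that count. Tnfrsf9 stood inside the range of T and NK markers there. Tnfrsf18 stood at 14.9% of free RNA in WT and at 25.1% in KO, just above the highest marker in KO (23.5%). Its ratio in cDC1 without T or NK transcripts was 1.45 (0.937 to 2.27). The Cd40 ratio was 1.0 in the smaller finer cDC1 cluster and 1.71 in the finer cDC2 one. In neutrophils Tnf, Tnfrsf9 and Tnfrsf18 all passed, against 8.61% and 8.63%, but Tnfrsf9 and Tnfrsf18 (11.3% and 14.3% of free RNA) stood inside the marker range, which leaves Tnf alone above background.

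Within regulatory T cells thinned to equal depth, the receptors were found together slightly more often than the product of their shares. Tnfrsf4 and Tnfrsf18 were both seen in 54.1% of WT cells (product 52.0%) and in 65.3% of KO cells (63.3%). Tnfrsf9 and Tnfrsf4 were both seen in 58.1% (56.0%) and 75.4% (74.7%). In CD8 T cells, Tnfrsf4 was seen in 28.6% of WT cells with Tnfrsf9 and in 16.2% of those without, and in KO in 28.4% and 17.8%. In CD4 T cells Cd40lg and Cd70 were seen together in 0.850% of WT and 0.339% of KO cells, where the products were 0.655% and 0.501%. Cells of 1 matrix are not replicates, so these are descriptions.

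Across the named classes, the genes whose levels followed each member most closely were found by Pearson's r of log2(CPM + 5) over 22 points (11 classes in 2 matrices, which share libraries and depth), among 9460 genes. Tnfrsf9 was followed most closely by Gzmb (0.907), which encodes granzyme B, Tnfrsf4 by Cd5 (0.963) and Tnfrsf18 by Gata3 (0.952) and Tigit (0.941). Cd40 was followed by the MHC class II genes H2-Aa (0.951) and H2-Eb1 (0.949). Cd40lg was followed by Tnfsf11 (0.898), which encodes RANKL, and Lta (0.897), both TNF family ligands themselves. Tnf was followed by Gm56824 (0.912), Tnfsf9 by Lrrc58 (0.855), Cd70 by Nrn1 (0.943) and Cd27 by Ica1 (0.933). Among the members, Tnfrsf18 and Cd27 (0.896) and Tnfrsf4 and Tnfrsf18 (0.888) were the closest pairs.

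Peak lists from tumour-associated macrophages gave another readout near these genes, in mm10 coordinates. In the bulk annotation (GENCODE vM10) Tnf lies at chr17:35199381-35202007 on the minus strand, Tnfsf9 at chr17:57105385-57107757 on the plus strand, Cd70 at chr17:57145997-57149777 on the minus strand, Tnfrsf9 at chr4:150914562-150946102 on the plus strand, Cd40 at chr2:165055627-165072948 on the plus strand, Cd27 at chr6:125232622-125237010 on the minus strand and Cd40lg at chrX:57212143-57224042 on the plus strand. EGR2 was profiled by CUT&Tag, with 1 deposited list per genotype, and open chromatin by ATAC-seq, with 1 list merged from both. Within 10 kb, 2 of the 9 members had a peak in the WT EGR2 list, 1 in the KO EGR2 list and 7 in the ATAC list, where 17.1%, 14.7% and 55.2% of the 12939 tested genes did. In Tnfrsf18 the WT EGR2 peak at chr4:156028014-156028514 lay 2100 bp past the start and wholly over exon sequence. It overlapped an ATAC peak at chr4:156028157-156028657, and its score of 17.6, by the authors' own scale, ranked 5249 of 5408 in its list. Near Tnfsf9 the WT EGR2 peak at chr17:57111796-57112296 lay 4039 bp beyond the gene's end (score 34.4, rank 1623). The KO EGR2 peak at chr17:57117442-57117942 lay 9685 bp beyond it (score 32.1, rank 2412 of 4995) and overlapped an ATAC peak. No EGR2 peak lay within 10 kb of Tnf, Tnfrsf9, Cd40, Cd70 or the other members in either list. Tnfrsf9 held 3 ATAC peaks in its body, of which those centred 7521 and 24972 bp past the GENCODE start were intronic and the one at 30491 bp lay over exon sequence. The peak at 7521 bp is the same one given above as 1928 bp from the first RefSeq start and 5916 bp from the second. Tnf held 1, at chr17:35200736-35201236, and another 7634 bp beyond its end had a score of 95.3, rank 529 of 30189. Lists were made per genotype, so they give no replicates to compare.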

How the data were processed

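Bulk reads were counted by the authors with featureCounts 2.0.6 on exons of GENCODE vM10 (mm10), per the file headers. The deposited counts ignore strand and count both reads of a pair: 76.07% to 82.73% of counts from 1 to 50 were even. Single cell UMI counts were made with Cell Ranger 8.0.1 over all barcodes, per the file headers. Each peak has a score set by the authors, and the caller is not given in the sources used here.

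Genes passing filterByExpr were TMM-scaled and tested with edgeR 4.0.16 (genotype only, Benjamini-Hochberg, 0.05). The script was tested on simulated data. The cell filter asked for 500 genes, 1000 UMIs and no more than 10% of UMIs from mitochondria; doublets called by Scrublet (501 WT, 319 KO) were removed and the rest clustered with scanpy 1.11.5 (2000 variable genes without the members and pathway lists, 30 components, 15 neighbours, Leiden resolution 1). UMIs were summed per class and matrix, with exact Poisson and binomial 95% intervals that cover counting error only; a count of 0 allows 3. Classes needed 3 detected markers and a clear best score, a rule set after seeing the clusters, as were the joining of monocytes and macrophages, the 1.5-fold mark, the reading of free RNA by shares and the cells with 3 or more Tnfrsf9 UMIs.

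The members and gene lists were chosen with earlier results of these data known. Named genes are the members, up to 4 called genes per list with the smallest adjusted p, and the 3 genes most like each member. Alternatives were DESeq2 1.42.0, other scaling, filters, read pairs, libraries left out, a replicate block, and other cell filters, clusterings and peak windows. Each matrix is filed under the first single cell sample of its genotype and was used as 1 sample; no source used here says whether it pools the second. The H3K27ac, H3K4me1 and EGR2 ChIP samples were not analysed here. No bulk libraries held identical values.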

Additional observations from a re-analysis of the deposited data

How the results depend on the processing

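The members called lower in bulk RNA fell from 2 to 1 (Tnfsf9 alone) with no filter on low counts, with counts turned into read pairs (where Cd70 was filtered out) and with a replicate block, and ranged from 1 to 2 as single libraries were left out. The same block changed no other member's call, and same-numbered libraries did not deviate together (correlations of -0.00484, 0.00188 and 0.0112), so the numbers do not pair them. As libraries were left out, calls ranged from 2 to 4 among other ligands (higher), 0 to 1 (higher) and 0 to 2 (lower) among other receptors, and 2 to 4 (higher) among B7 and CD28 genes. DESeq2 called 1 other receptor lower. The log2 fold change of Cd40, near 0, turned to 0.00963 with upper-quartile scaling, 0.00998 without a filter (which moved the median of all genes to 0.135), 0.000682 with DESeq2, and ranged from -0.0316 to 0.0255 as libraries were left out. The remaining 75 of 87 alternative fold changes of members kept direction and call.

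In single cells, 105 of 126 alternative ratios stayed inside the main counting interval. Cd40 in cDC1 went to 1.0 with finer clusters. A cDC2 cluster named separately there, which also held cells from outside the cDC1 class, had 1.71. The cDC1 class was not found with doublets kept, coarser clusters or the members among the variable genes. Tnfrsf9 in monocytes and macrophages ranged from 4.44 to 9.64 over its alternatives, with free RNA subtracted leaving 0 in WT and so no ratio, and in regulatory T cells from 1.72 to 1.75. The 4.44 came from finer clusters, where the Arg1-led and Nos2-led clusters were left unnamed and not counted. Whether cells of the class also went to the finer cDC2 cluster was not tested. Using only cells with no T or NK transcript was chosen after seeing the data. Cd70 in CD4 T cells ranged from 0.835 to 1.56, the latter from the Ccl1-led finer cluster alone. Of 18 free RNA levels 8 moved with barcodes of 1 to 20 UMIs.

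Members with a peak were 0, 1 and 4 (KO EGR2, WT EGR2, ATAC) within 2 kb, 4 and 6 (KO and WT EGR2) within 50 kb, and 1 for WT EGR2 among peaks above the median score. Depth limits Cd70 and Cd40lg in bulk RNA and the B cells and plasmacytoid dendritic cells.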

Other observations

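Other genes of the TNF pathway also differed in neutrophils, where Tnf differed most. Tnfaip2 went from 948 CPM in WT to 1483 in KO (ratio 1.56, 1.47 to 1.66), Traf1 from 213 to 354 (1.66, 1.46 to 1.89), Cflar from 223.5 to 315 (1.41, 1.24 to 1.61), Adam17 from 86.5 to 136 (1.57, 1.28 to 1.94) and Tnfaip3, the A20 inhibitor of NF-kB, from 861 to 1025 (1.19, 1.11 to 1.27). Zfp36l2 went down, from 644 to 475 (0.738, 0.676 to 0.805). In bulk macrophage RNA Tnfaip2, Traf1, Cflar and Tnfaip3 were called lower instead, and Adam17 higher. In monocytes and macrophages Adam17 also went up (115 to 144, ratio 1.25, 1.19 to 1.31) and Cd80 down (215 to 168, 0.781, 0.752 to 0.812), as in bulk, while Tnfaip2 went up (265 to 319, 1.20) and not down as in bulk. Icos, a costimulatory receptor of another family, rose with Tnfrsf9 in regulatory T cells, from 800.0 to 1060 (1.33, 1.28 to 1.38). Each matrix is 1 library, and 8.61% of genes were at least 1.5-fold higher and 8.63% lower in KO neutrophils, so these values describe the 2 matrices.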
